A study of Homo sapiens with 4 samples.

Results

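Most of the genes described here encode the machinery that carries proteins made in the cytosol into mitochondria. The whole list was chosen by name, as all gene symbols in the table that begin with TIMM or TOMM followed by a digit, together with SAMM50, GRPEL1, GRPEL2, PMPCA, PMPCB, MTX1, MTX2, CHCHD4, GFER, PHB and PHB2. This rule uses no measured value, although it was chosen with earlier results of these data known. The rule found 35 of the 25268 symbols in the table. Expression was measured in FPKM, fragments per kilobase of transcript scaled to the mapped fragments of the library. Changes are given for the 34 import genes that averaged at least 1 FPKM over the libraries, as 11147 symbols did in all.

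Nearly all mitochondrial proteins are encoded in the nucleus and enter through the TOM complex of the outer membrane. From there, SAMM50 and the metaxins insert barrel-shaped proteins into the outer membrane, the small TIM chaperones escort hydrophobic proteins between the membranes, and CHCHD4 with GFER traps cysteine-rich proteins there by forming disulfide bonds. Proteins with a cleavable presequence cross the inner membrane through the TIM23 complex and are pulled in by a motor of TIMM44, the HSP70 protein HSPA9 and the GRPEL exchange factors. The peptidase PMPCA-PMPCB then removes the presequence, while carrier proteins enter the inner membrane through TIMM22. The prohibitins PHB and PHB2 form a scaffold in the inner membrane. The name rule includes them, and they are counted below among the import genes.

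RNA-Seq was performed on SK-MEL-28, an established human melanoma cell line, transduced with lentivirus and selected with geneticin. The vector line carried empty pTRIPZ, and the MYC line carried a MYC gene behind a Tet-inducible promoter. Both were grown either untreated or for 54 h in medium containing doxycycline (Dox, 0.5 μg/ml), and the comparison asks which transcripts change when Dox is given to cells with the inducible MYC gene. Each of the 4 conditions has 1 library, and the labels do not say whether a line is a single clone. No change could therefore be set against a spread between replicates, and p-values are not given. A change is the difference of log2(FPKM + 0.1) between 2 libraries, and "rose" or "fell" is kept for changes of at least 1.5-fold. The counting error beside a change is approximate, covers the sampling of fragments only, and leaves out differences between cultures. Values over the libraries are given in the order vector line untreated, vector line with Dox, MYC line untreated and MYC line with Dox.

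MYC itself measured 58.3, 54.8, 76.5 and 87.1 FPKM in that order. Its log2 change after Dox was 0.19 in the MYC line, or 1.14-fold, which is below both limits used here for other genes, and -0.09 in the vector line. Between the untreated lines MYC differed by 0.39 and between the lines under Dox by 0.67. The deposited values thus show little induction of MYC within the MYC line, and libraries are named below by line and treatment only. By other measures, the paper reports that Dox raised MYC mRNA (RT-PCR) and the activity of a MYC reporter in MYC-inducible SK-MEL-28 cells. Why the deposited values differ from the RT-PCR was not tested. The libraries held approximately 35100000 to 42100000 fragments, which is a lower estimate. The 7 melanocyte markers examined summed to between 7771 and 7911 FPKM in 3 libraries and to 4414 FPKM in the MYC line with Dox. Most of each sum was PMEL, with 6176, 6227, 6178 and 3394 FPKM. In the MYC line each marker was lower with Dox than without. The level of DCT there with Dox, 65.1 FPKM, was nevertheless above that in the vector line with Dox, 61.9 FPKM. PTPRC and CD3E, which mark leukocytes, were at most 0.0175 FPKM, although the third leukocyte marker, CD68, measured 204 to 273 FPKM. The 3 fibroblast and the 3 endothelial markers summed to at most 0.166 and 0.114 FPKM. The 5 epithelial markers summed to between 33.3 and 49.8 FPKM, most of it KRT18. The part of the lower melanocyte markers in the results below was not tested.

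The import genes are mostly abundant transcripts, and 11 of the 34 were among the 1114 most abundant of the 11147 genes. TOMM7, a small subunit that modulates the assembly of the TOM complex, had the highest level of the list, with 1383, 1358, 1317 and 1300 FPKM. TOMM5, PHB, TIMM50, TOMM6 and SAMM50 followed, all between 188 and 371 FPKM in every library. At the other end, GRPEL2 measured 5.76 to 9.18 FPKM and TIMM23B 5.84 to 6.99 FPKM. TOMM20L, a relative of the presequence receptor TOMM20, had 0.328, 0.370, 0.306 and 0.161 FPKM. This corresponds to approximately 8 fragments in the untreated MYC line, so TOMM20L was left out of the counts and medians.

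**Figure D1:**
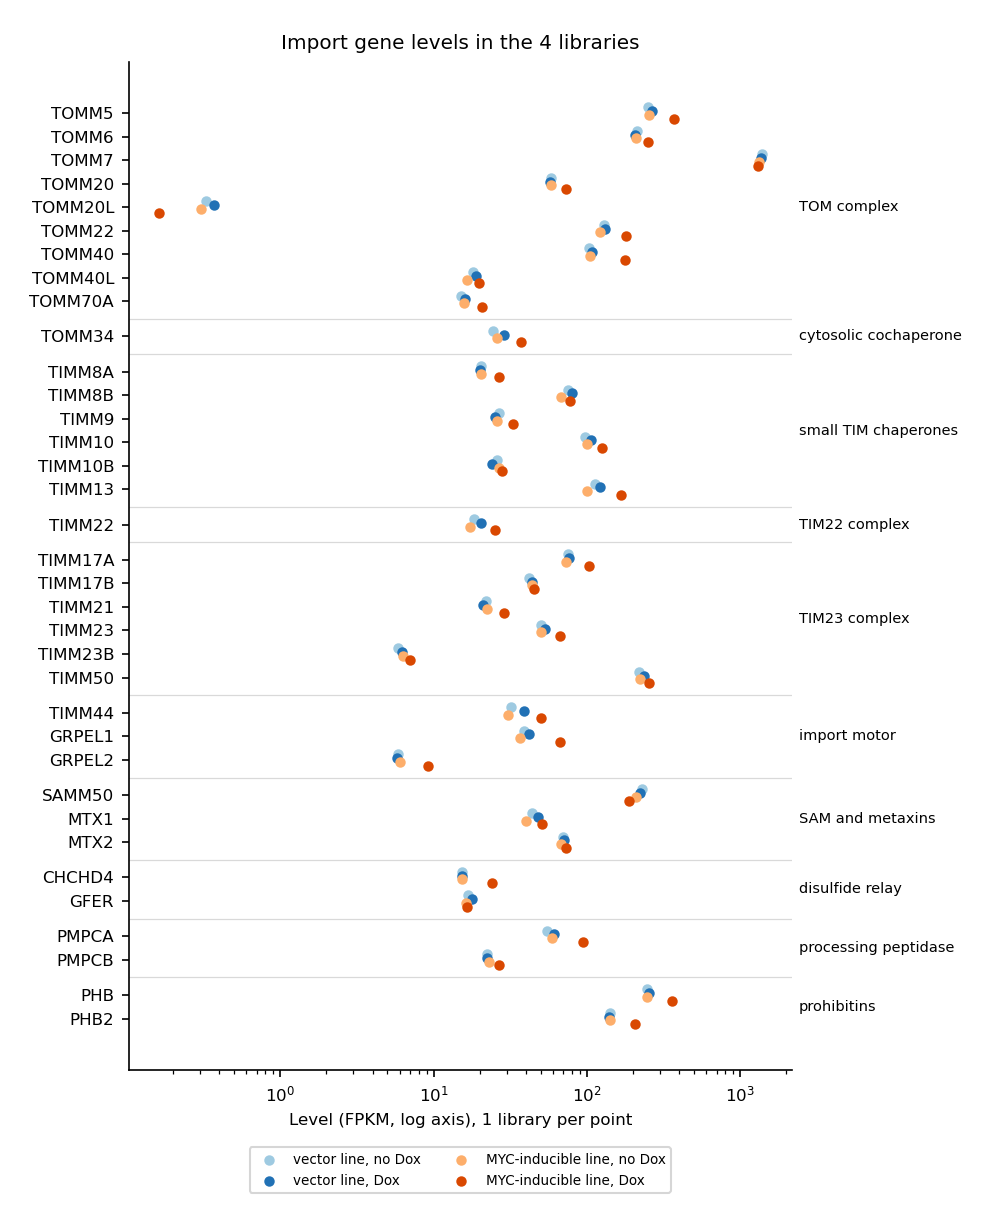
Levels of the 35 import genes, in FPKM on a log axis, with 1 point for each of the 4 libraries and genes grouped by role. For most genes 3 libraries lie close together and the MYC line with Dox lies to their right, while TOMM7 (1300 to 1383 FPKM) and SAMM50 (188 to 230 FPKM) do not show this.

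Most import genes were higher after Dox in the line labelled as MYC-inducible. In the MYC line Dox gave a higher value for 32 of the 34 import genes, against 46.8% of all genes. At least 1.5-fold increases were found for 7 of them (20.6%, against 5.9% of all genes), namely TOMM40, TIMM13, TIMM44, GRPEL1, GRPEL2, CHCHD4 and PMPCA. None fell to this extent, against 8.85% of all genes. With a lower limit of 0.32 on the log2 scale, 21 were higher (61.8%, against 16.9% of all genes) and 0 were lower (against 21.4%). The median log2 change was 0.38 for the import genes, with quartiles of 0.21 and 0.56, and -0.03 for all genes, with quartiles of -0.27 and 0.21. The increase was larger than that of 75% of all genes for 25 of the 34.

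In the vector line, which lacks the inducible gene, Dox moved no import gene past the lower limit. At 0.32 on the log2 scale 0 of 34 were higher and 0 lower, against 2.36% and 1.72% of all genes. At 1.5-fold there were again 0 in either direction, against 0.709% and 0.44%. In a list of 34 genes these counts are near the shares of all genes. The median log2 change of the import genes was 0.05 and that of all genes 0.01. Of the import genes 24 were higher, against 54.2% of all genes. The largest vector line changes were 0.28 for TIMM44, 0.24 for TOMM34 and 0.16 for PMPCA. The signed log2 change in the MYC line minus that in the vector line was above 0 for 31 of 34 genes, against 45.5% of all genes. Its median was 0.34, against -0.04 for all genes, and it was not tested because each condition has 1 library. It was below 0 for SAMM50, GFER and TIMM17B.

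**Figure D2:**
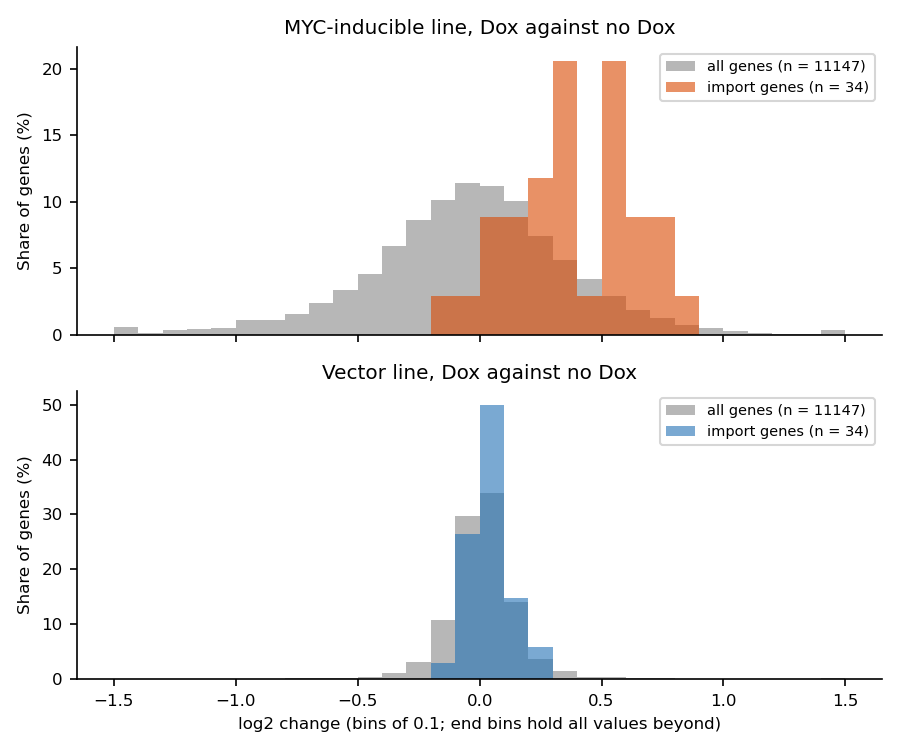
Share of genes, in percent, by log2 change after Dox in bins of 0.1, for the import genes (coloured) and all 11147 genes (grey), with the MYC line above and the vector line below. The import genes lie mostly to the right of all genes in the upper panel, with medians of 0.38 and -0.03, and over them in the lower panel, with medians of 0.05 and 0.01.

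Before Dox the lines were close to each other for these genes, as they were for most genes. All 34 import genes differed by less than 0.32 on the log2 scale between the untreated MYC and vector lines, a limit past which 2.49% of all genes were higher and 1.11% lower in the MYC line, and their median difference was -0.01. The largest were -0.18 for TIMM13, -0.15 for TIMM8B and -0.14 for SAMM50, so for TIMM13 the MYC line started lower. When the lines were compared under Dox, 5 import genes were at least 1.5-fold higher in the MYC line (14.7%, against 6.5% of all genes) and 0 lower (against 8.62%). These 5 were TOMM40, GRPEL1, GRPEL2, CHCHD4 and PMPCA. The log2 difference was 0.46 for TIMM13 and 0.37 for TIMM44, which did not pass. These comparisons share libraries with those above and are not independent of them.

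The share of all FPKM that went to the 35 genes was 0.556%, 0.557%, 0.547% and 0.641% in the same order. In the MYC line the summed level of TIMM44, GRPEL1 and GRPEL2 was 73.3 FPKM untreated and 126 FPKM after Dox, and that of the processing peptidase was 81.8 and 121 FPKM. For SAMM50 and the metaxins together it was 316 and 313 FPKM.

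**Figure D3:**
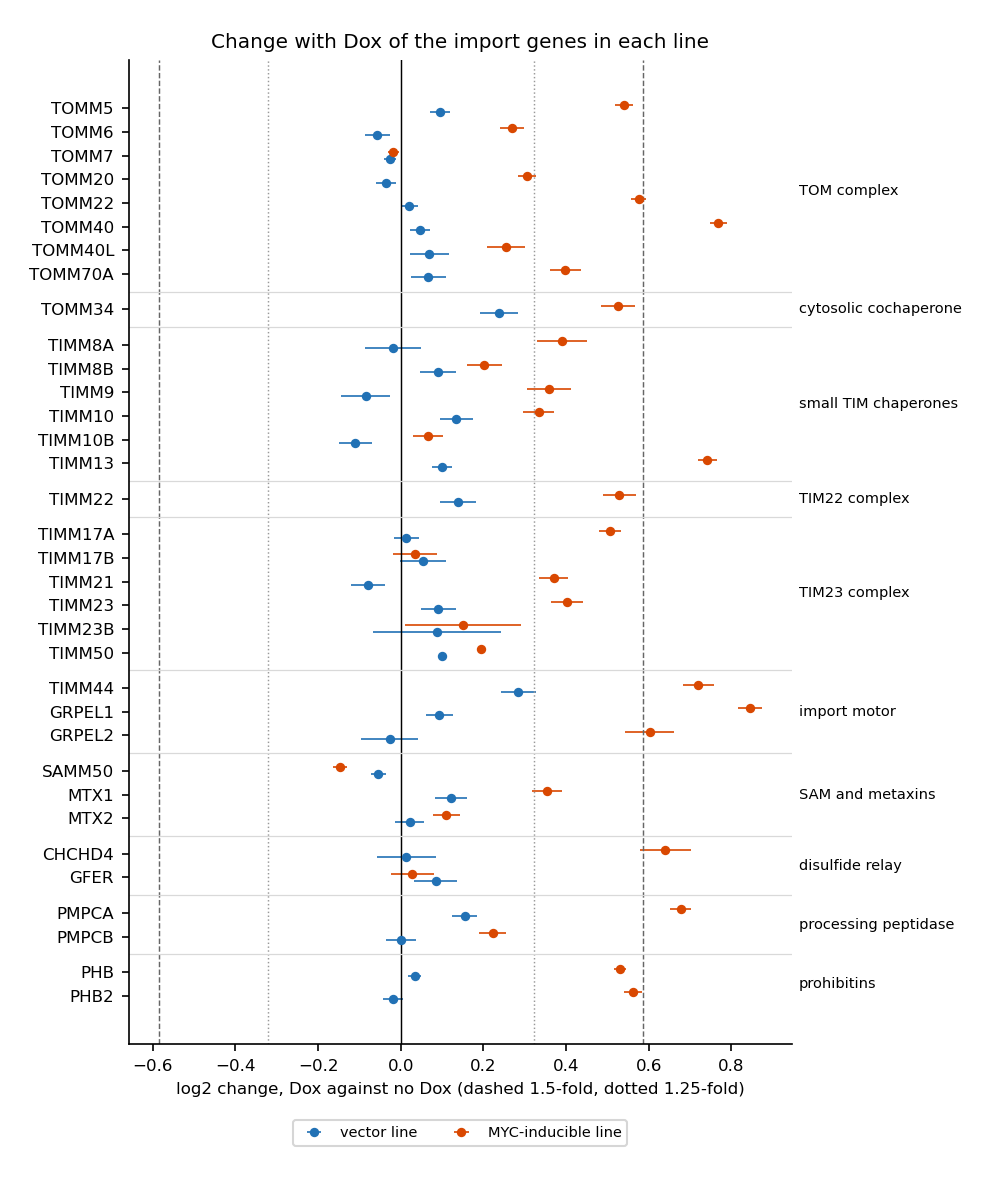
The log2 change after Dox of the 34 import genes in the MYC line (orange) and the vector line (blue), with 1 value per line and gene and bars showing the approximate counting error. The 7 genes beyond the dashed 1.5-fold line are spread over 5 roles, all blue points lie inside the dotted lines at 0.32, and SAMM50 and TOMM7 are the orange points below 0.

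Of the 8 TOM complex genes, 7 were higher after Dox in the MYC line (against 46.8% of all genes) and 1, TOMM40, rose (against 5.9%). The median log2 change of the group was 0.35. TOMM40, on chromosome 19 from 45393826 to 45406946 (GRCh37), encodes the channel through which the proteins pass. It measured 104, 107, 104 and 177 FPKM. Its level was thus nearly the same in 3 libraries and higher in the MYC line with Dox, by 0.77 on the log2 scale with a counting error of 0.0209. TOMM40L, its relative, had 18.1, 19.01, 16.6 and 19.8 FPKM, a change of 0.25. TOMM22, the central receptor that holds the complex together, had 129, 131, 121 and 180 FPKM. The log2 change of 0.58, or 1.49-fold, put TOMM22 just below the limit. TOMM5, a small subunit, had 250, 267, 255 and 371 FPKM and a change of 0.54, with most of its transcript sequence shared with another annotated gene. TOMM70A, the receptor for carrier proteins that is now named TOMM70, had 15.2, 15.9, 15.8 and 20.8 FPKM and a change of 0.40. The presequence receptor TOMM20 had 58.4, 57.0, 58.7 and 72.6 FPKM and a change of 0.31. The small subunit TOMM6, whose whole transcript sequence also occurs in another annotated gene, changed by 0.27. The value for TOMM7 was -0.02, and its sign turned positive, to 0.03, when libraries were scaled by the median ratio. TOMM34, a cytosolic cochaperone of the import pathway, had 24.5, 29.0, 25.8 and 37.2 FPKM. It was higher after Dox in both lines, by 0.24 in vector cells and 0.53 in the MYC line.

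The 6 small TIM chaperone genes were all higher after Dox in the MYC line (against 46.8% of all genes), with a median log2 change of 0.35. TIMM13, on chromosome 19 from 2425623 to 2427584, works as a partner of TIMM8A in the space between the membranes. It was the group's gene that rose (against 5.9% of all genes), with 113, 121, 99.4 and 166 FPKM and a log2 change of 0.74 in the MYC line. All 3 other libraries were below the MYC line with Dox, and the lowest was the untreated MYC line. TIMM8A, with 20.3, 20.0, 20.2 and 26.5 FPKM, changed by 0.39, and TIMM8B, with 75.03, 79.9, 67.6 and 77.8 FPKM, by 0.20. For TIMM8B the vector line with Dox thus had the highest value. TIMM9 changed by 0.36, and TIMM10, which forms a chaperone ring with TIMM9, had 97.1, 107, 99.8 and 126 FPKM and a change of 0.33. TIMM10B had the smallest change of the group, 0.07, with 25.9, 24.04, 26.8 and 28.1 FPKM. TIMM22, the channel for carrier proteins, had 18.4, 20.3, 17.4 and 25.1 FPKM and a log2 change of 0.53 in the MYC line.

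All 6 TIM23 complex genes were higher after Dox in the MYC line (against 46.8% of all genes), with a median log2 change of 0.28. None of the 6 rose, which in so small a group is near the share of all genes, 5.9%. TIMM17A, a core subunit of the translocase, had the largest change of the group, 0.51, with 75.3, 76.0, 72.5 and 103 FPKM. TIMM17B, its relative, had the smallest, 0.04, with 42.1, 43.7, 43.7 and 44.8 FPKM. The value for TIMM17B turned to -0.01 when libraries were rescaled to the same sum. TIMM23, the core subunit after which the complex is named, had 50.001, 53.3, 50.3 and 66.5 FPKM and a change of 0.40. Its near-identical copy TIMM23B had 5.84, 6.21, 6.29 and 6.99 FPKM and a change of 0.15 with a counting error of 0.140. The change was 0.37 for TIMM21, which links the complex to the outer membrane and to the respiratory chain, and 0.20 for TIMM50, the receptor on the inner membrane.

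The 3 motor genes that the name rule includes, TIMM44, GRPEL1 and GRPEL2, all rose (against 5.9% of all genes) and had the highest group median, 0.72. Other parts of the motor, which the rule leaves out, did not pass 1.5-fold, with changes of 0.37 for HSPA9, 0.58 for PAM16 and 0.33 for DNAJC19. DNAJC15, a cochaperone related to the motor, was lower after Dox, at -0.37. GRPEL1, on chromosome 4 from 7060398 to 7069812, encodes the nucleotide exchange factor that resets HSPA9 after each pull. It had the largest change of the whole list, with 39.1, 41.7, 36.8 and 66.2 FPKM. The log2 change was 0.85 with a counting error of 0.0284 in the MYC line and 0.09 in the vector line, and GRPEL1 ranked 201 of 11147 genes by increase. GRPEL2, its relative on chromosome 5 from 148724993 to 148734146, had 5.87, 5.76, 6.01 and 9.18 FPKM. Its change of 0.60, or 1.52-fold, was just past the limit. TIMM44, which anchors the motor at the channel and lies on chromosome 19 from 7991603 to 8008552, had 31.8, 38.7, 30.4 and 50.2 FPKM. Both lines were higher after Dox, by 0.28 and 0.72, and the difference of 0.44 between the lines was less than 1.5-fold.

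SAMM50 and the metaxins had the lowest group median, 0.11. SAMM50, the central subunit of the sorting and assembly machinery, had 230, 221, 209 and 188 FPKM, and its change of -0.15 was the lowest of the 34 genes. The MYC line with Dox was the lowest of the 4, and the untreated MYC line was already below both vector libraries. MTX1, a metaxin that binds SAMM50, had 43.8, 47.7, 40.04 and 51.2 FPKM and a change of 0.35. Its partner MTX2 had 70.2, 71.3, 67.8 and 73.2 FPKM and a change of 0.11.

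In the disulfide relay the genes behaved unequally. CHCHD4, the oxidoreductase that captures incoming proteins, lies on chromosome 3 from 14153577 to 14166370 and rose, with 15.2, 15.4, 15.4 and 23.996 FPKM and a log2 change of 0.64. GFER, which re-oxidises CHCHD4, had 16.8, 17.8, 16.2 and 16.5 FPKM. Its change of 0.03 turned to -0.02 when libraries were rescaled to the same sum.

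PMPCA, the α subunit of the processing peptidase, lies on chromosome 9 from 139305082 to 139322444. It rose in the MYC line, with 54.6, 60.8, 58.9 and 94.2 FPKM and a log2 change of 0.68. PMPCB, the β subunit that holds the catalytic site, had 22.2, 22.2, 22.9 and 26.7 FPKM and a change of 0.22. The prohibitins moved by nearly the same amount and both stayed just below 1.5-fold. PHB had 248, 254, 247 and 357 FPKM and a change of 0.53, and PHB2 had 142, 140, 140 and 207 FPKM and a change of 0.56. For both, 3 libraries lay together and the MYC line with Dox lay above them. With scaling by the median ratio PHB2, TOMM22 and TOMM5 passed 1.5-fold as well, at 0.61, 0.62 and 0.59.

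Genes of a pair often changed unequally. Of the 11 pairs set side by side, mostly relatives or subunits of the same complex, 10 had both genes above 1 FPKM. TOMM40 changed by 0.51 more on the log2 scale than TOMM40L, with a counting error of 0.0497. TIMM17A changed by 0.47 more than TIMM17B, with an error of 0.0596, so that the ratio of their FPKM went from 1.66 to 2.30. In the vector line this ratio was 1.79 and 1.74. PMPCA changed by 0.45 more than PMPCB, and the ratio of the α to the β transcript went from 2.57 to 3.52, beside 2.46 and 2.74 in the vector line. The differences were 0.24 for GRPEL1 over GRPEL2, 0.27 for TIMM10 over TIMM10B, 0.24 for MTX1 over MTX2, 0.19 for TIMM8A over TIMM8B and 0.13 for TOMM34 over TOMM70A. For TIMM10 over TIMM10B and for TOMM34 over TOMM70A the vector line gave 0.24 and 0.17, so differences of similar size were seen without the inducible gene. Smaller vector line differences in the same direction were 0.12 for GRPEL1 over GRPEL2 and 0.10 for MTX1 over MTX2. The vector line gave -0.11 for TIMM8A over TIMM8B and -0.02 for TOMM40 over TOMM40L. In the MYC line PHB and PHB2 differed by -0.03, with an error of 0.0251. For TIMM23 over TIMM23B the difference was 0.25 with an error of 0.146, and 52.9% of the 50-base stretches of the TIMM23 transcript also occur in TIMM23B, so their values are uncertain.

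**Figure D4:**
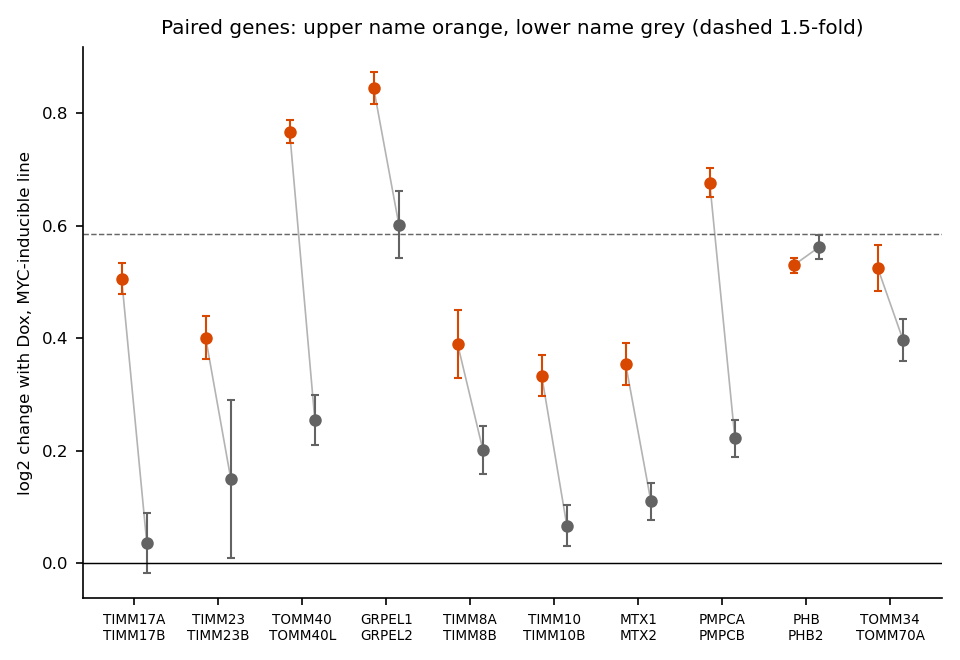
The log2 change after Dox in the MYC line for 10 pairs of import genes, the first of each pair in orange and the second in grey, with bars showing the approximate counting error and 1 library per condition. TOMM40 and TOMM40L (0.77 and 0.25), TIMM17A and TIMM17B (0.51 and 0.04) and PMPCA and PMPCB (0.68 and 0.22) lie far apart, and PHB and PHB2 (0.53 and 0.56) lie together.

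The values of some genes could include reads of others. In the annotation 23 of the 35 genes overlap another gene on either strand, and whether strand was used in making the values is not stated. Of the 34 genes, 15 share no 50-base stretch of their transcript with another gene, including GRPEL1, TIMM44, TIMM13 and TIMM17A. The shared part was over 10% for 7, namely TOMM5, TOMM6, TOMM40, TIMM10B, TIMM23, TIMM23B and MTX1. It was 100% for TOMM6, 75.1% for TIMM23B, 73.1% for TOMM5 and 52.9% for TIMM23, so the values of these 4 genes are uncertain. For TOMM40 it was 22.5%, mostly with the pseudogene TOMM40P4, and for MTX1 34.3%, with MTX1P1. For TOMM6, TOMM5 and TIMM10B the gene that shares the most overlaps them on the same strand. By contrast, TIMM23 and TIMM23B lie at separate positions. Without these 7 genes, an alternative chosen after seeing the data, the median log2 change of the rest was 0.39 in the MYC line and 0.03 in the vector line.

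MYC binds DNA together with MAX at the E-box, whose preferred form reads CACGTG on both strands. On GRCh37, 15 of the 35 import genes (42.9%) had this motif within 500 bases of their annotated start, in either direction, as did 22.0% of the 10217 genes of at least 1 FPKM that could be placed. The 15 count both TIMM23 and its copy TIMM23B, whose motifs lie in the same duplicated stretch. The 35 include TOMM20L, which is below 1 FPKM and lacked the motif. In the shorter promoter window of RefSeq (GRCh38.p14, 250 bases before to 50 after the start), 3 of 32 matched import genes (9.38%) and 8.78% of all 27305 symbols held the motif. A match is a description of the letters and says nothing of binding in these cells. The stretches below are examples, and each holds the motif beside an import gene of a different role and lies outside all annotated exons. Stretches of TIMM8A, TOMM5 and TOMM34 also lie outside all annotated exons and are not shown. Those shown are from GRCh37, run 5′ to 3′ on the strand of the gene, and the capitals mark the E-box.

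GRPEL1 (motor, intron, chr4:7069383-7069448, minus strand): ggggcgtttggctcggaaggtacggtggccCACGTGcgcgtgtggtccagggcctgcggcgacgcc

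TIMM13 (small TIM chaperone, intron, chr19:2427111-2427176, minus strand): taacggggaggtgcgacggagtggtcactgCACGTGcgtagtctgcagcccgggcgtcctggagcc

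PHB (prohibitin, upstream, chr17:47492463-47492528, minus strand): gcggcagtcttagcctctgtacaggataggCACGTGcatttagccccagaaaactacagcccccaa

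TOMM20 (TOM complex, upstream, chr1:235292285-235292350, minus strand): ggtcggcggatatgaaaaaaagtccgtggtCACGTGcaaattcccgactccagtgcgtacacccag

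TIMM50 (TIM23 complex, intron, chr19:39971784-39971849, plus strand): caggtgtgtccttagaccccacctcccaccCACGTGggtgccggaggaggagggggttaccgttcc

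The genes printed cover a wide range of log2 change in the MYC line, from 0.85 for GRPEL1 and 0.74 for TIMM13, through 0.53 for PHB, to 0.31 for TOMM20 and 0.20 for TIMM50. Within the list, the genes with and without the motif had similar changes. The median was 0.39 for the 15 genes with it and 0.37 for the 19 without it, and 3 of the former and 4 of the latter rose. The 4 were TOMM40, GRPEL2, CHCHD4 and PMPCA.

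Across the 34 import genes the change showed no order by level. Spearman's rho between the level in the untreated MYC line and the log2 change in that line was -0.02, over genes of the same 2 libraries, which are not independent replicates. Genes at a low level, such as GRPEL2, and at a high level, such as TOMM40 and TIMM13, were among those that rose.

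Other genes of mitochondrial import, folding and proteolysis were mostly higher too. Of the 30 such genes in the table, 27 were higher after Dox in the MYC line (against 46.8% of all genes), 5 rose (against 5.9%) and 0 fell at least 1.5-fold (against 8.85%). The median log2 change was 0.27, against -0.03 for all genes. TRAP1, an HSP90 chaperone of the matrix, had 59.7, 66.4, 59.9 and 152 FPKM, and its change of 1.34 was larger than that of any import gene. HSPD1 and HSPE1 together form the chaperonin that folds imported proteins. HSPD1 had 528, 533, 586 and 1085 FPKM and HSPE1 had 594, 593, 604 and 982 FPKM, with changes of 0.89 and 0.70. CLPX, the unfoldase of the CLPXP protease, had 9.02, 8.69, 9.99 and 16.4 FPKM and a change of 0.71. DNAJA3, a cochaperone of HSPA9, had 30.003, 29.9, 29.0 and 44.5 FPKM and a change of 0.62. The 3 genes that were lower were DNAJC15, a cochaperone related to the motor, at -0.37, the outer membrane gene MTCH1 at -0.23 and ROMO1 at -0.16. C19orf52, the older symbol of the TIM22 subunit TIMM29, changed by 0.24.

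**Figure D5:**
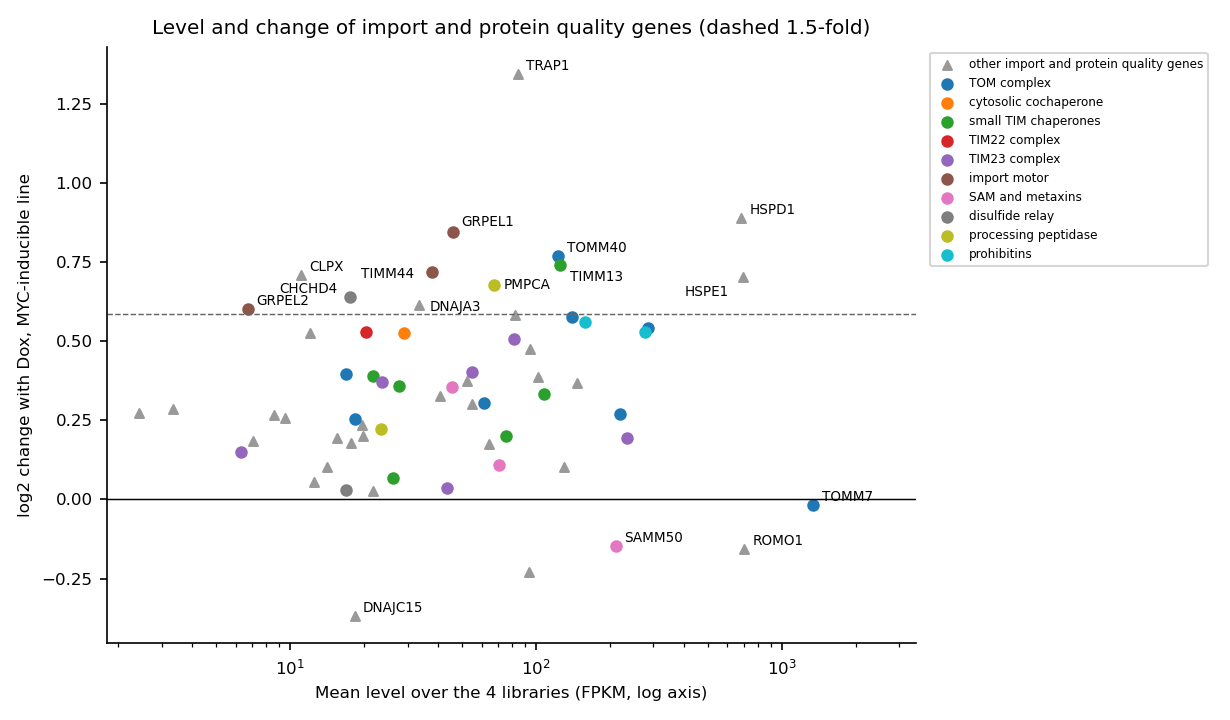
Mean level over the 4 libraries (FPKM, log axis) against the log2 change after Dox in the MYC line, for the 34 import genes (circles, coloured by role) and 30 other import and protein quality genes (grey triangles), 1 library per condition. GRPEL1 (0.85) is the highest circle and SAMM50 (-0.15) the lowest, and TRAP1 (1.34) lies above all others.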

How the data were processed

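RNA-Seq libraries of SK-MEL-28 cells, 4 in all, were compared by gene. The values are FPKM as the authors deposited them. The submitters' processing notes name TopHat2 2.0.14, Cufflinks and hg19, and the role of each and the annotation are not given in the sources used here. From 27032 rows, an unnamed row was dropped and 609 symbols with several rows, of which 0 are import genes, were summed. FPKM values are not counts and there is a single library in each condition, so no test was made. Changes are differences of log2(FPKM + 0.1), a scale that understates the change of low genes.

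Depth was estimated from genes below 0.2 FPKM, whose values are often whole multiples of what 1 fragment is worth. Steps and transcript lengths of 158 genes gave it, with quartiles of 34100000 and 40800000 fragments for the untreated vector line. For each gene the largest step that fitted was taken, so the depth is a lower estimate. Counting errors follow from this depth and the annotated transcript length. For TIMM50, whose annotated transcript has 5037 bases, the error is understated if a shorter transcript was counted. Positions, overlaps, shared 50-base stretches and E-boxes came from GENCODE release 44 on GRCh37, in which PHB, TOMM70A and C19orf52 were matched as PHB1, TOMM70 and TIMM29.

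The members, lists and alternatives were chosen with earlier results of these data known. Values in all libraries were given for import genes that rose in the MYC line or passed the lower limit of 0.32 (log2) in the vector line, for the largest and smallest change of each role and for paired genes, and for genes of the wider list that rose. Genes just below a limit, TOMM5, and the other genes named from the wider list were added after their values were seen. The alternatives were other pseudocounts, filters, scalings, limits and references, the mean for the median, and leaving out symbols with several rows. Leaving out genes with shared stretches was added after seeing the data. The calculation was tested on simulated data. Python 3.11.15, numpy 2.4.6, pandas 2.3.3, scipy 1.17.1 and matplotlib 3.10.9 were used.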

Additional observations from a re-analysis of the deposited data

How the results depend on the processing

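No paired analysis was possible because there was a single library in each condition. Of the recalculated counts and medians, 85 stayed within 1.5 times the count or within 0.11 on the log2 scale, the robust SD over all genes of the vector line change, and 3 moved further. The number of import genes that rose in the MYC line was 0 at 2-fold and 21 at the lower limit, and without the filter on low values 1 gene, TOMM20L, fell. Under the other alternatives the number that rose lay between 5, against the vector line with Dox, and 10, with median ratio scaling. The median log2 change of the import genes lay between 0.33 and 0.43 in the MYC line and between 0.03 and 0.05 in the vector line. In the MYC line it exceeded the median of all genes by 0.36 to 0.42 under each alternative. Where the mean replaced the median, the mean of the import genes was still set against the median of all genes. Without the filter on low values the median of all genes was 0, so that comparison says little. For single import genes 567 recalculated values stayed within 0.11 and 11 moved further. Most of the 567 had little room to move. Filters and leaving out symbols with several rows cannot alter a single import gene, and a scaling shifts all genes of a comparison almost equally. All 11 were among the 34 values with Dox-treated vector cells as the reference. They included the risen genes GRPEL1, at 0.67, TIMM13, at 0.46, and TIMM44, at 0.37, while TIMM8B was at -0.04 and GFER at -0.11. The cause was not tested. The depth limits TOMM20L and TIMM23B most.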
